A study of Homo sapiens with 21 samples.

Results

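Messenger RNA levels of 10 genes of retinoic acid metabolism and response are described: the hydroxylases CYP26A1 and CYP26B1, the retinol uptake receptor STRA6, the binding protein CRABP2, the oxidoreductases RDH10 and DHRS3, the receptor RARA, and the target genes RARRES1, HRASLS2 and TGM2. They were picked by symbol from the 58735 genes of the count table when their levels over the coumarin doses were already known. Those levels are therefore a description and carry no p-value. Each symbol matched 1 gene, and all 10 are among the 16699 genes that held enough counts to be tested.

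The cells carry the label HepG2, the name of a hepatoma line, and were kept for 24 h in serum-free DMEM with coumarin, a plant lactone. Doses were 0, 0.001, 0.01, 0.1, 1, 10 and 100 µM in 7 groups, and the 0 µM group is the untreated control. Each group had 3 biological replicates, which gives 21 libraries of 26984563 to 43375429 counts. No other genotype, cell line or agent is named, and the serum-free medium was shared by all groups.

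The label was checked against marker genes. None of 10 hepatocyte markers reached a mean of 1 CPM (counts scaled to a common library size), their sum was at most 0.242 CPM in any library, and ALB, TTR, APOC3 and FGB had 0 counts in every library. AFP, which HepG2 cells are known to secrete, averaged 0.0183 CPM. Of 4 ductal epithelial markers, the keratin KRT7 averaged 751 CPM, while KRT19, EPCAM and SOX9 averaged 0.0575, 0.00164 and 0.333 CPM. The liver identity that the label gives is thus absent from these marker levels, and the cells are called by their label only. Control replicates 2 and 3 stood somewhat apart from the other libraries. The share of the total behind the FPKM values that lies outside the counted genes was 8.03% and 8.17% in them, 3.91% in control replicate 1 and 1.04% to 5.43% at the treated doses.

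Retinoic acid is a hormone-like acid made from vitamin A. STRA6 takes up retinol from its carrier in blood, RDH10 oxidises retinol to retinal, and DHRS3 reduces retinal back to retinol. Aldehyde dehydrogenases of the ALDH1A family turn retinal into retinoic acid. CRABP2 hands the acid to nuclear receptors such as the product of RARA, which sit on DNA as pairs with RXR receptors, and CYP26 enzymes break the acid down. CYP26A1, CYP26B1, STRA6, DHRS3, RARRES1 and TGM2 are known to be induced by retinoic acid in many cell types, and in liver the CYP26 enzymes clear the acid while stellate cells store vitamin A as esters.

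A sequence known to be bound by RAR and RXR is the retinoic acid response element, a direct repeat of 2 half-sites. RefSeq promoter windows (GRCh38.p14, from 250 bases before to 50 bases after a start) were held for 7 of the 10 genes, 16 windows in all, and were searched on both strands for the half-site AGGTCA, its variant AGTTCA, and the further variant GGGTCA, and for direct repeats of any of these spaced by 1, 2 or 5 bases. A direct repeat was found in 1 window, at CYP26A1, on the plus strand of chr10:93073643-93073942, shown here 5′ to 3′ with the repeat in capitals.
CYP26A1 promoter: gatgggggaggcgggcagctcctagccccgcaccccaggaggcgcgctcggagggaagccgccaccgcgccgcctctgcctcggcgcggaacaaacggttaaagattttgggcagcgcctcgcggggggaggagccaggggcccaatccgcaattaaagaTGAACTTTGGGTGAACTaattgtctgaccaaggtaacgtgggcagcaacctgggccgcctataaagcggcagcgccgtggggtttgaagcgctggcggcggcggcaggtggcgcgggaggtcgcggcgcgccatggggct
Read on the opposite strand the capitals are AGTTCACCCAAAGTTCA, a pair of AGTTCA half-sites 5 bases apart. They lie 90 to 74 bases before the start that this window belongs to. That places them at 93073803 to 93073819, inside the annotated span of the gene, which begins at 93073475. Another CYP26A1 window, at 93073225 to 93073524, held 0 half-sites. Of 35116 RefSeq promoter windows of the same length, 0.0427% held a repeat with this spacing and 0.194% a repeat with any of the 3 spacings. At least 1 half-site was in 5 of the 16 windows, against 33.2% of all windows. These were the CYP26A1 window with the repeat and windows of STRA6, RARA and DHRS3. A match of letters is a description of the window and does not show binding. Other variants of the half-site and bases outside the windows were not searched.

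Compared per length of gene, levels differed widely among the 10 genes. On the authors' FPKM scale (fragments per length of gene and size of library), the order in untreated cells ran from RDH10 at 54.0 ± 1.5 FPKM (SD, n = 3, as for the other FPKM values here), through DHRS3 at 32.7 ± 1.5, STRA6 at 11.6 ± 0.49, RARA at 4.95 ± 0.18, HRASLS2 at 4.17 ± 0.34, CYP26B1 at 3.67 ± 0.12, RARRES1 at 3.22 ± 0.25, CRABP2 at 3.19 ± 0.20 and TGM2 at 1.94 ± 0.15, to CYP26A1 at 0.509 ± 0.068 FPKM. Of neighbours in that order, RARRES1 and CRABP2 had overlapping replicates. At 100 µM RDH10 was still first, at 52.3 ± 0.51 FPKM, and CYP26A1 last, at 0.116 ± 0.023 FPKM. RARA (4.34 ± 0.12 FPKM) and STRA6 (4.23 ± 0.13 FPKM) then overlapped, and CRABP2 (2.82 ± 0.43 FPKM) stood above HRASLS2, RARRES1 and CYP26B1, which had 1.40 ± 0.12, 1.22 ± 0.15 and 1.03 ± 0.013 FPKM.

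At 100 µM coumarin, 7 of the 10 genes were more than 2-fold lower than in untreated cells: CYP26A1, CYP26B1, TGM2, HRASLS2, STRA6, RARRES1 and DHRS3, by 2.23-fold to 4.31-fold. At 10 µM these 7 genes were lower by less. At 0.001 to 1 µM their group means lay between 83.9% (RARRES1 at 0.1 µM) and 117.7% (CYP26A1 at 0.001 µM) of the control. RARA, CRABP2 and RDH10 differed from untreated cells by at most 0.30 in either direction on the log2 scale at 10 and 100 µM. In bulk RNA of this kind, fewer cells that express a gene and less RNA of it per cell cannot be told apart.

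The hydroxylases that remove retinoic acid were both more than 3-fold lower at 100 µM. CYP26B1 (ENSG00000003137, GRCh38 chromosome 2, 72129238 to 72148038, minus strand) had 19.8, 18.6 and 19.2 CPM in the 3 untreated libraries, a lowest, median and highest of 16.8, 20.2 and 23.5 CPM in the 12 libraries at 0.001 to 1 µM, 9.45, 8.82 and 11.3 CPM at 10 µM and 5.44, 5.37 and 5.33 CPM at 100 µM. The groups at 10 and 100 µM overlapped neither each other nor any library at a lower dose. Its log2 change in the edgeR fit was -1.84 ± 0.09 (standard error, as for all log2 changes here) at 100 µM and -0.94 ± 0.08 at 10 µM, both against 0 µM, which are 3.57-fold and 1.92-fold lower.

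CYP26A1 (ENSG00000095596, chromosome 10, 93073475 to 93077890, plus strand), with a promoter window printed above, was the least abundant of the 10, with 8 to 60 counts per library. It had 1.60, 1.78 and 1.36 CPM at 0 µM, 1.15, 1.68 and 2.08 CPM as lowest, median and highest at 0.001 to 1 µM, 0.949, 1.25 and 0.993 CPM at 10 µM and 0.279, 0.408 and 0.392 CPM at 100 µM. Every library at 100 µM lay below every other library. At 10 µM all 3 lay below the controls but overlapped the lower doses, where the lowest and the highest value both came from the 0.1 µM group. It was 4.31-fold lower at 100 µM (log2 change -2.11 ± 0.26), with a log2 change of -0.58 ± 0.21 at 10 µM, each against 0 µM. Of its 2972 exon bases, 25.2% are shared with AL358613.3 on the same strand.

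STRA6, the retinol uptake receptor (ENSG00000137868, chromosome 15, 74179466 to 74212267, minus strand), had 88.1, 95.8 and 94.8 CPM at 0 µM, 76.5, 92.8 and 101.5 CPM as lowest, median and highest at 0.001 to 1 µM, 66.2, 59.7 and 67.3 CPM at 10 µM and 34.8, 32.8 and 33.8 CPM at 100 µM. Its groups at 10 and 100 µM were apart from each other and from all lower doses. The log2 change was -1.46 ± 0.05 at 100 µM, or 2.75-fold lower, and -0.53 ± 0.05 at 10 µM, or 1.44-fold lower. Exon bases shared with CCDC33 on the other strand make up 7.02% of STRA6, and CCDC33 itself had a log2 change of -1.21 ± 0.15 at 100 µM at a mean level of 3.61 CPM. The strand setting of the counting is not given in the sources used here, so reads of overlapping genes on opposite strands may not be told apart.

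DHRS3, which returns retinal to retinol (ENSG00000162496, chromosome 1, 12567910 to 12617731, minus strand), had 108, 98.9 and 104 CPM at 0 µM, 98.8, 105.5 and 114 CPM as lowest, median and highest at 0.001 to 1 µM, 83.3, 77.1 and 87.1 CPM at 10 µM and 48.3, 47.1 and 44.0 CPM at 100 µM. Again 10 and 100 µM stood apart from each other and from every lower dose. DHRS3 was 2.23-fold lower at 100 µM (log2 change -1.16 ± 0.05) and 1.26-fold lower at 10 µM (-0.33 ± 0.05). It shares no exon base with another annotated gene.

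RDH10, which runs the opposite reaction to DHRS3 (ENSG00000121039, chromosome 8, 73294612 to 73325281, plus strand), had 309, 295 and 296 CPM at 0 µM, 303, 311 and 327 CPM as lowest, median and highest at 0.001 to 1 µM, 292, 308 and 313 CPM at 10 µM and 292, 286 and 290 CPM at 100 µM. The 100 µM libraries lay below the controls by a narrow gap, and the 10 µM libraries overlapped them. Its log2 change was -0.05 ± 0.04 at 100 µM and 0.02 ± 0.04 at 10 µM. Of this pair of enzymes, the transcript of the one that reduces retinal was lower at 100 µM, and that of the one that makes it differed by little more than its standard error.

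CRABP2, the carrier of retinoic acid to its receptors (ENSG00000143320, chromosome 1, 156699606 to 156705816, minus strand), had 3.91, 3.49 and 3.58 CPM at 0 µM, 2.59, 3.76 and 4.97 CPM as lowest, median and highest at 0.001 to 1 µM, 3.18, 2.32 and 3.30 CPM at 10 µM and 3.49, 3.53 and 2.66 CPM at 100 µM. The 100 µM libraries overlapped the controls, and the 10 µM libraries lay below them. So did the 0.1 µM libraries, with a log2 change of -0.30 ± 0.15. The log2 change was -0.19 ± 0.15 at 100 µM and -0.30 ± 0.15 at 10 µM.

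RARA encodes the retinoic acid receptor alpha (ENSG00000131759, chromosome 17, 40309192 to 40357643, plus strand). It had 23.5, 24.5 and 25.3 CPM at 0 µM, 22.6, 26.98 and 30.2 CPM as lowest, median and highest at 0.001 to 1 µM, 20.5, 20.3 and 22.9 CPM at 10 µM and 21.0, 22.0 and 21.0 CPM at 100 µM. Its levels at 10 and 100 µM were alike and lay below the controls, and the greatest levels came at 0.01 µM. The log2 change was -0.20 ± 0.06 at both 100 and 10 µM against 0 µM. RARA-AS1, on the other strand, shares 11.8% of RARA's exon bases and fell by 0.87 ± 0.15 on the log2 scale at 100 µM (edgeR adjusted p = 1.47e-05).

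TGM2, tissue transglutaminase, a protein-crosslinking enzyme and classical retinoic acid target (ENSG00000198959, chromosome 20, 38127387 to 38166578, minus strand), had 15.0, 16.2 and 17.6 CPM at 0 µM, 14.4, 16.4 and 17.8 CPM as lowest, median and highest at 0.001 to 1 µM, 10.5, 10.1 and 10.6 CPM at 10 µM and 4.64, 5.06 and 4.31 CPM at 100 µM. The dose groups above 1 µM were apart from each other and from every lower dose. The log2 change was -1.81 ± 0.08 at 100 µM, or 3.50-fold lower, and -0.64 ± 0.08 at 10 µM, or 1.56-fold lower. Its overlapping neighbour RPRD1B, which shares 4.9% of TGM2's exon bases, had a log2 change of 0.06 ± 0.05 at 100 µM.

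RARRES1, named as a retinoic acid receptor responder (ENSG00000118849, chromosome 3, 158696892 to 158732696, minus strand), had 8.12, 7.43 and 6.97 CPM at 0 µM, 4.89, 6.75 and 7.86 CPM as lowest, median and highest at 0.001 to 1 µM, 5.66, 4.48 and 4.16 CPM at 10 µM and 2.44, 3.02 and 3.05 CPM at 100 µM. The 100 µM libraries were below all others, and the 10 µM libraries were below the controls but overlapped the lower doses. Against 0 µM it was 2.63-fold lower at 100 µM (log2 change -1.39 ± 0.13) and 1.59-fold lower at 10 µM (-0.67 ± 0.12). MFSD1 on the other strand shares 14.8% of its exon bases, is more abundant (45.7 CPM on average) and had a log2 change of -0.03 ± 0.05 at 100 µM. AC080013.1, also on the other strand, shares 11.9% of the exon bases, averaged 3.89 CPM and fell by 1.05 ± 0.15 on the log2 scale (edgeR adjusted p = 7.75e-07). With the strand setting unknown, its reads and those of RARRES1 may not be told apart.

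HRASLS2 encodes a phospholipase and acyltransferase of the family that also holds the retinoic acid-induced RARRES3 (ENSG00000133328, chromosome 11, 63552770 to 63563383, minus strand). It had 3.47, 2.96 and 3.26 CPM at 0 µM, 2.74, 3.36 and 3.72 CPM as lowest, median and highest at 0.001 to 1 µM, 2.92, 2.28 and 2.91 CPM at 10 µM and 1.19, 1.02 and 1.04 CPM at 100 µM. Only the 100 µM libraries were clear of the lower doses. The log2 change was -1.58 ± 0.17 at 100 µM, or 2.98-fold lower, and -0.25 ± 0.15 at 10 µM.

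Counted by the test used for all genes (edgeR's quasi-likelihood F test, Benjamini-Hochberg adjusted p under 0.05), 8 of the 10 genes were called lower at 100 µM and 0 higher, where 12.9% of the 16699 tested genes were called lower and 14.4% higher. Nothing is read from that count, since the genes were picked with these values known. The 8 were the 7 genes above and RARA, whose call was lost without control replicate 3, without 100 µM replicate 3 and with control replicate 1 alone, which leaves 7. All 3 libraries at 100 µM lay below all 3 controls in 9 of the 10, CRABP2 being the exception, against 19.9% of tested genes. The median log2 change of the 10 was -1.43, beside -0.01 over all tested genes. Among 16699 genes ordered from the lowest log2 change, CYP26A1 stood at place 21, CYP26B1 at 39, TGM2 at 42, HRASLS2 at 73, STRA6 at 99, RARRES1 at 113 and DHRS3 at 203, followed by RARA at 3844, CRABP2 at 3892 and RDH10 at 7007.

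At 10 µM, 5 of the 10 were called lower (CYP26B1, STRA6, DHRS3, RARRES1 and TGM2) and 0 higher, where 0.874% of tested genes were called lower. Without control replicate 3 the number of genes called either way at this dose was 92 in place of 437, and the same 5 of the 10 were called. Libraries at 10 µM lay below all 3 controls in 9 of the 10, with RDH10 the exception, against 8.62% of tested genes. The median log2 change of the 10 was -0.43, beside 0.00 over all tested genes.

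**Figure D1:**
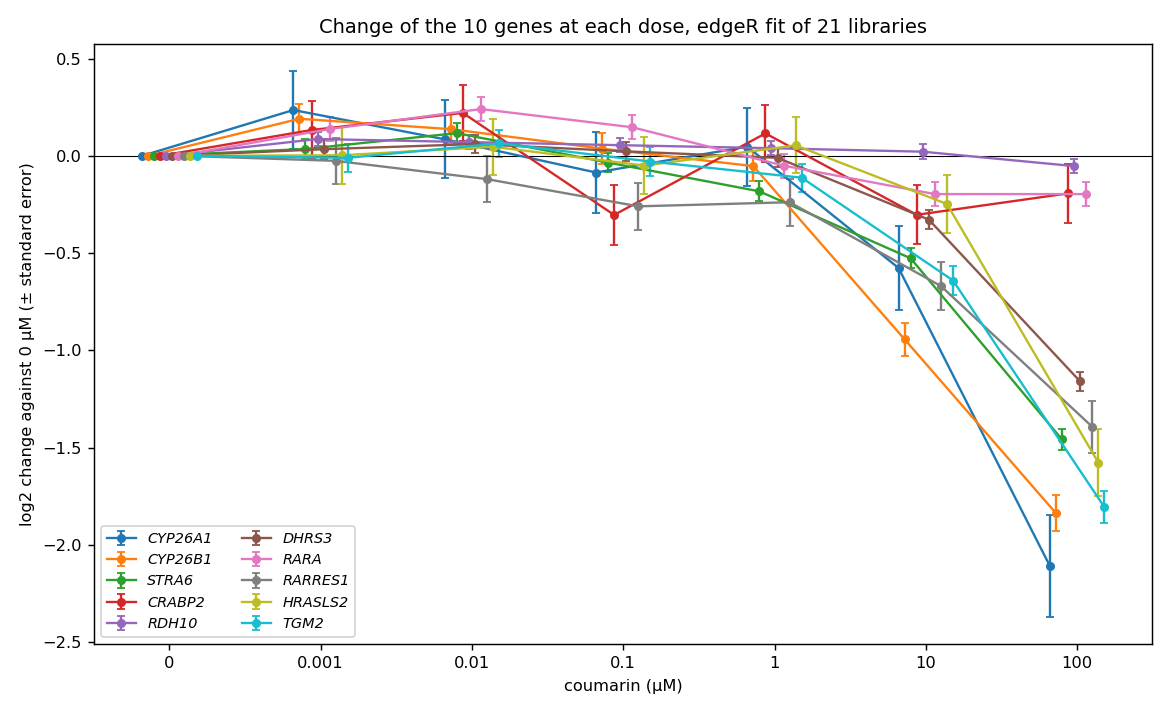
Log2 change against 0 µM (vertical axis, edgeR fit, bars are ± 1 standard error) of the 10 genes at each of 6 coumarin doses in µM (horizontal axis). The lines run near 0 up to 1 µM, and 7 genes end between -1.16 and -2.11 at 100 µM.

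Below 10 µM the group means of the 10 genes lay between 80.9% (CRABP2 at 0.1 µM) and 118% (RARA at 0.01 µM) of their untreated level. RARRES1 had log2 changes of -0.26 ± 0.12 at 0.1 µM and -0.24 ± 0.12 at 1 µM, and was called at neither dose. As 1 contrast, 0.001 to 1 µM against 0 µM gave 0 calls among the 10 with edgeR, which called 6.99% of tested genes either way, and 0 with DESeq2. At an unadjusted edgeR p under 0.05 there were 2 of the 10, both higher. The share of all genes at that looser threshold was not taken, so nothing is read from that number. At single doses, RARA was called higher at 0.01 µM (log2 change 0.24 ± 0.06, with 4.77% of tested genes called higher there), and STRA6 was called lower at 1 µM (log2 change -0.18 ± 0.05, with 0.431% called lower). The STRA6 libraries at 1 µM, at 89.7, 79.6 and 76.5 CPM, overlapped the controls. At 0.001 and 0.1 µM edgeR called 0 of the 10, where 1.53% and 6.45% of tested genes were called either way. At the looser unadjusted p under 0.05 there were 3 of the 10 at 0.001 µM, all higher, and 2 at 0.1 µM, 1 of them higher. Again no share of all genes was taken, and nothing is read from these numbers.

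The steps of the dose series differed between the genes. At 10 µM against the pooled 0.001 to 1 µM libraries, the log2 change was -1.02 ± 0.07 for CYP26B1, -0.65 ± 0.17 for CYP26A1, -0.62 ± 0.06 for TGM2, -0.51 ± 0.04 for STRA6, -0.51 ± 0.10 for RARRES1, -0.35 ± 0.04 for DHRS3 and -0.26 ± 0.12 for HRASLS2. At 100 µM against 10 µM it was -0.89 ± 0.10 for CYP26B1, -1.53 ± 0.28 for CYP26A1, -1.17 ± 0.09 for TGM2, -0.93 ± 0.05 for STRA6, -0.72 ± 0.14 for RARRES1, -0.83 ± 0.05 for DHRS3 and -1.33 ± 0.17 for HRASLS2. CYP26B1 thus had 53.3% of its whole log2 difference between the pooled lower doses and 100 µM by 10 µM, and HRASLS2 had 16.4%, with the other 5 of these genes at 29.7% to 41.3%.

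RARA made the first step (-0.32 ± 0.05) and no second one (0.00 ± 0.06). The pooled lower doses hold its higher means of 26.9, 28.9 and 27.1 CPM at 0.001, 0.01 and 0.1 µM. Its mean was 23.6 CPM at 1 µM and 21.2 CPM at 10 µM. Against the pooled lower doses, 9 of the 10 were called lower at 100 µM (16.5% of tested genes) and 7 at 10 µM (1.90%), and 7 were called lower between 100 and 10 µM (10.0%). RDH10 joined the 100 µM calls against the pooled lower doses, with a log2 change of -0.12. These counts share libraries with the comparisons against 0 µM and add no independent evidence.

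**Figure D2:**
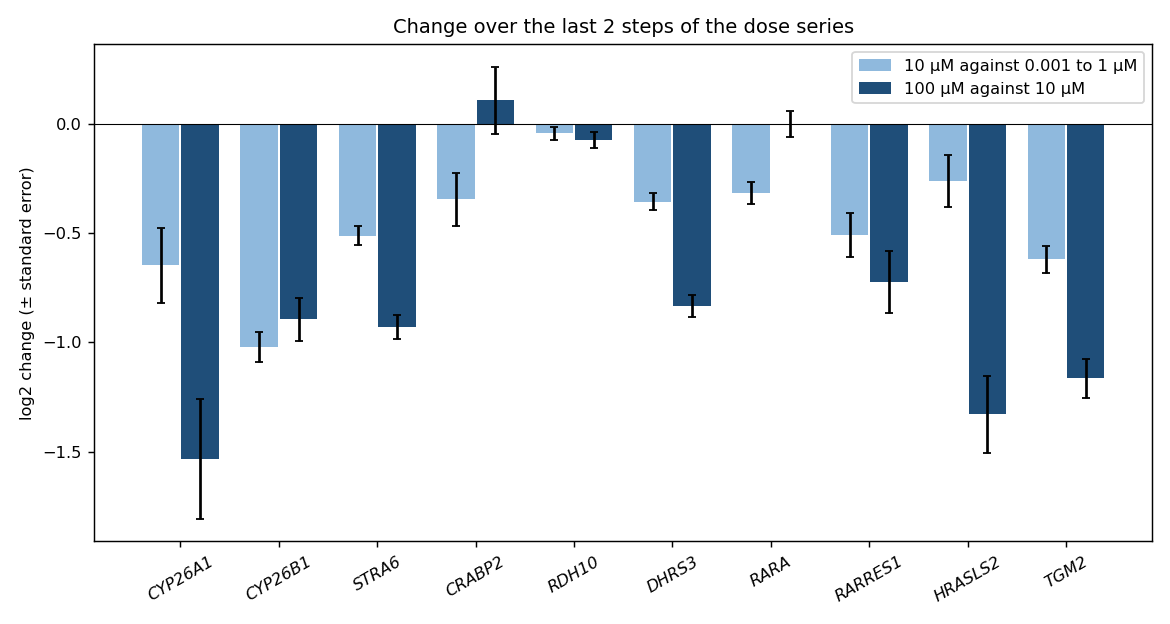
Log2 change (vertical axis, bars with ± 1 standard error) of each of the 10 genes at 10 µM against the 12 libraries at 0.001 to 1 µM and at 100 µM against 10 µM. CYP26B1 is alone among the 7 lowered genes in having the larger estimate on the first step, -1.02 against -0.89.

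With control replicate 1 as the only control, the 7 genes above were still called lower at 100 µM and the same 5 at 10 µM. The summed level of 6 mesenchymal markers was lower at the highest dose, mostly through COL3A1. It was 1587 to 1674 CPM at 0 µM, 1553 to 1676 CPM at 10 µM and 1381 to 1428 CPM at 100 µM. Of these markers COL3A1 averaged 950 CPM at 100 µM and 1164 CPM at 0 µM, PDGFRB 20.1 CPM at 100 µM and 37.2 CPM at 0 µM, while VIM was slightly higher, at 325 CPM at 100 µM and 315 CPM at 0 µM, and so was COL1A1, at 114 CPM at 100 µM and 107 CPM at 0 µM. COL1A2 had at most 1 count and PDGFRA 0 counts in any library. The part of such cells in the results was not tested.

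The wider pathway was followed in 84 further genes listed by role, of which 43 held enough counts to be tested. At 100 µM 6 of the 43 rose and 19 fell, together 58.1%, beside 27.3% of all tested genes, and the median log2 change of the 43 was -0.23. These lists too were chosen with earlier results of these data known. Their shares at any dose, and the adjusted p-values of their genes, are therefore a description. With upper-quartile in place of TMM scaling 5 rose and 22 fell, and over all genes 1875 rose and 2659 fell in place of 2409 and 2149. With control replicate 1 as the only control, 14 of the 43 were called in place of 25.

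Retinoic acid-induced genes outside the 10 gave most of those falls: 2 of 16 tested rose, 10 fell and 4 did not pass, with a median log2 change of -0.36. Over all tested genes 14.4% were called higher and 12.9% lower. IGFBP3, a binding protein of insulin-like growth factors, had 731, 754.5 and 673 CPM at 100 µM, against 1571, 1497 and 1575 CPM at 0 µM, without overlap. It fell by 1.11 ± 0.05 on the log2 scale, 2.15-fold (edgeR adjusted p = 5.64e-19), and at 10 µM by 0.32 (adjusted p = 0.000221). IGFBP6, of the same family, had 23.6, 22.9 and 23.7 CPM at 100 µM, against 46.3, 41.9 and 44.4 CPM at 0 µM, and fell 1.89-fold (edgeR adjusted p = 2.14e-15) and at 10 µM by 0.31 on the log2 scale (adjusted p = 0.00181). GPRC5A, a receptor-like membrane protein first found as a retinoic acid-induced gene, and TNFAIP2 fell at 100 µM by 0.73 and 0.66 on the log2 scale (edgeR adjusted p = 6.71e-11 and 1.45e-13). The homeobox genes HOXB2 and HOXB4 had log2 changes of -0.14 and 0.17 (edgeR adjusted p = 0.107 and 0.334), and HOXB2 passed under upper-quartile scaling, against 0.001 to 1 µM and without control replicate 2 (adjusted p = 0.0444, 0.0170 and 0.0388). Of the same list HOXA5 and HOXB5, named after their values were seen, fell by 0.42 and 0.29 (edgeR adjusted p = 0.0335 and 0.0299). The 2 that rose, also named afterwards, were MEIS1 and MEIS2, by 0.25 and 0.23 (edgeR adjusted p = 0.0191 and 0.0196). RARRES3, of the HRASLS2 family and also named afterwards, is counted in this list. It fell by 1.08 ± 0.28 on the log2 scale (edgeR adjusted p = 0.00303), with 15 to 49 counts per library. The alternatives were not run for HOXA5, HOXB5, MEIS1, MEIS2 and RARRES3.

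Retinoic acid synthesis was measurable through 1 of its enzymes. ALDH1A3, which turns retinal into retinoic acid, had 28.8, 28.3 and 30.4 CPM at 100 µM, against 39.3, 39.1 and 40.3 CPM at 0 µM. It fell by 0.44 on the log2 scale (edgeR adjusted p = 4.72e-08), and at 10 µM, with 40.0, 39.8 and 40.7 CPM, it did not pass. ALDH1A1 had 0 to 5 counts per library and ALDH1A2 had 1 to 13, too few to be tested. CYP26C1, of the hydroxylases that break the acid down, also had 0 to 5 counts and was not tested.

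Among receptors and cofactors, 1 of 10 tested rose, 3 fell and 6 did not pass at 100 µM. Those called made up 40%, beside 27.3% of all tested genes. RARG, the gamma receptor, had 46.7, 53.7 and 50.4 CPM at 100 µM, against 63.5, 60.4 and 59.0 CPM at 0 µM, a fall of 0.28 on the log2 scale (edgeR adjusted p = 9.83e-05). NRIP1, a corepressor that binds liganded receptors, fell by 0.41 (adjusted p = 4.33e-08), and NCOR1, a corepressor of unliganded receptors, rose by 0.17 (adjusted p = 0.0011). Against 0.001 to 1 µM in place of 0 µM, the log2 change of NCOR1 was 0.03 (edgeR adjusted p = 0.524). NCOA3, a coactivator, fell by 0.11 (adjusted p = 0.0452), a call lost without any 1 of control replicates 2 and 3 and 100 µM replicates 1 and 2 (adjusted p = 0.235, 0.0904, 0.0586 and 0.136) and with no filter (0.260). RXRB, a partner receptor, had a log2 change of -0.03 (edgeR adjusted p = 0.615). RARB, itself a classical retinoic acid target, had 0 to 5 counts per library and was not tested.

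Uptake, binding and storage genes were mixed, with 1 of 5 tested rising and 2 falling at 100 µM, or 60% beside 27.3% of all tested genes. FABP5, which can carry retinoic acid as well as fatty acids, had 33.5, 31.3 and 36.6 CPM at 100 µM, against 28.9, 27.8 and 25.7 CPM at 0 µM, and rose by 0.30 on the log2 scale (edgeR adjusted p = 0.000521; with control replicate 1 alone, adjusted p = 0.107). SCARB1, a lipoprotein receptor that takes up carotenoids, fell by 0.11 (adjusted p = 0.0265), a call lost on leaving out control replicate 1, or replicate 1 or 3 at 100 µM (adjusted p = 0.171, 0.0514 and 0.0984) and with no filter (0.169). BCO2, a carotenoid-cleaving enzyme, fell by 0.62 (adjusted p = 0.0373), a call lost on leaving out control replicate 2, control replicate 3, or replicate 1 or 2 at 100 µM (adjusted p = 0.0814, 0.138, 0.0715 and 0.139), and also by DESeq2 (0.0642). DGAT1 had a log2 change of -0.07 and RBP5 one of -0.34 (edgeR adjusted p = 0.471 and 0.0563), and RBP5 passed without control replicate 1 and without 100 µM replicate 2 (adjusted p = 0.00737 and 0.0295), and under upper-quartile scaling (0.0379). RBP4, LRAT and CRABP1 had 0 counts in every library.

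Of the other retinol and retinal oxidoreductases, 1 of 7 tested rose, 1 fell and 5 did not pass at 100 µM. Their share of calls, 28.6%, was near the 27.3% of all tested genes. RDH11, which reduces retinal, had 73.4, 71.2 and 73.7 CPM at 100 µM, against 62.9, 63.7 and 63.7 CPM at 0 µM, a rise of 0.20 on the log2 scale (edgeR adjusted p = 0.000667). SDR16C5, a retinol dehydrogenase, had 8.44, 9.21 and 8.56 CPM at 100 µM, against 10.7, 10.6 and 11.5 CPM at 0 µM, and fell by 0.32 (edgeR adjusted p = 0.00227; with control replicate 1 alone, 0.0912). DHRS4 and RDH14 had log2 changes of -0.23 and 0.06 (edgeR adjusted p = 0.0547 and 0.661). DHRS4 lay close to the threshold: it passed without 100 µM replicate 1 (adjusted p = 0.0098) and under 8 of the 9 alternatives that leave out no single library (adjusted p = 0.0152 to 0.0478).

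Further relatives of the 10 by sequence, not in the lists above, were followed as well: of 4 tested, 1 rose, 2 fell and 1 did not pass at 100 µM. That is 75% called, beside 27.3% of all tested genes. LXN, a carboxypeptidase inhibitor related to RARRES1, had 24.1, 26.6 and 22.9 CPM at 100 µM, against 49.5, 48.0 and 50.1 CPM at 0 µM, and fell 2.01-fold (edgeR adjusted p = 4.13e-17) and at 10 µM by 0.30 on the log2 scale (adjusted p = 0.0015). PLA2G16, of the HRASLS2 family, fell by 0.39 (adjusted p = 9.78e-09). DHRS7, a short-chain dehydrogenase, rose by 0.16 (adjusted p = 0.0176), a call lost without any 1 of control replicates 2 and 3 and 100 µM replicates 1 and 2 (adjusted p = 0.0876, 0.0933, 0.0517 and 0.0693) and under upper-quartile scaling (0.0585). TGM1, a transglutaminase of skin, had a log2 change of -0.23 (edgeR adjusted p = 0.165), and it passed against 0.001 to 1 µM in place of 0 µM (adjusted p = 0.0306).

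**Figure D3:**
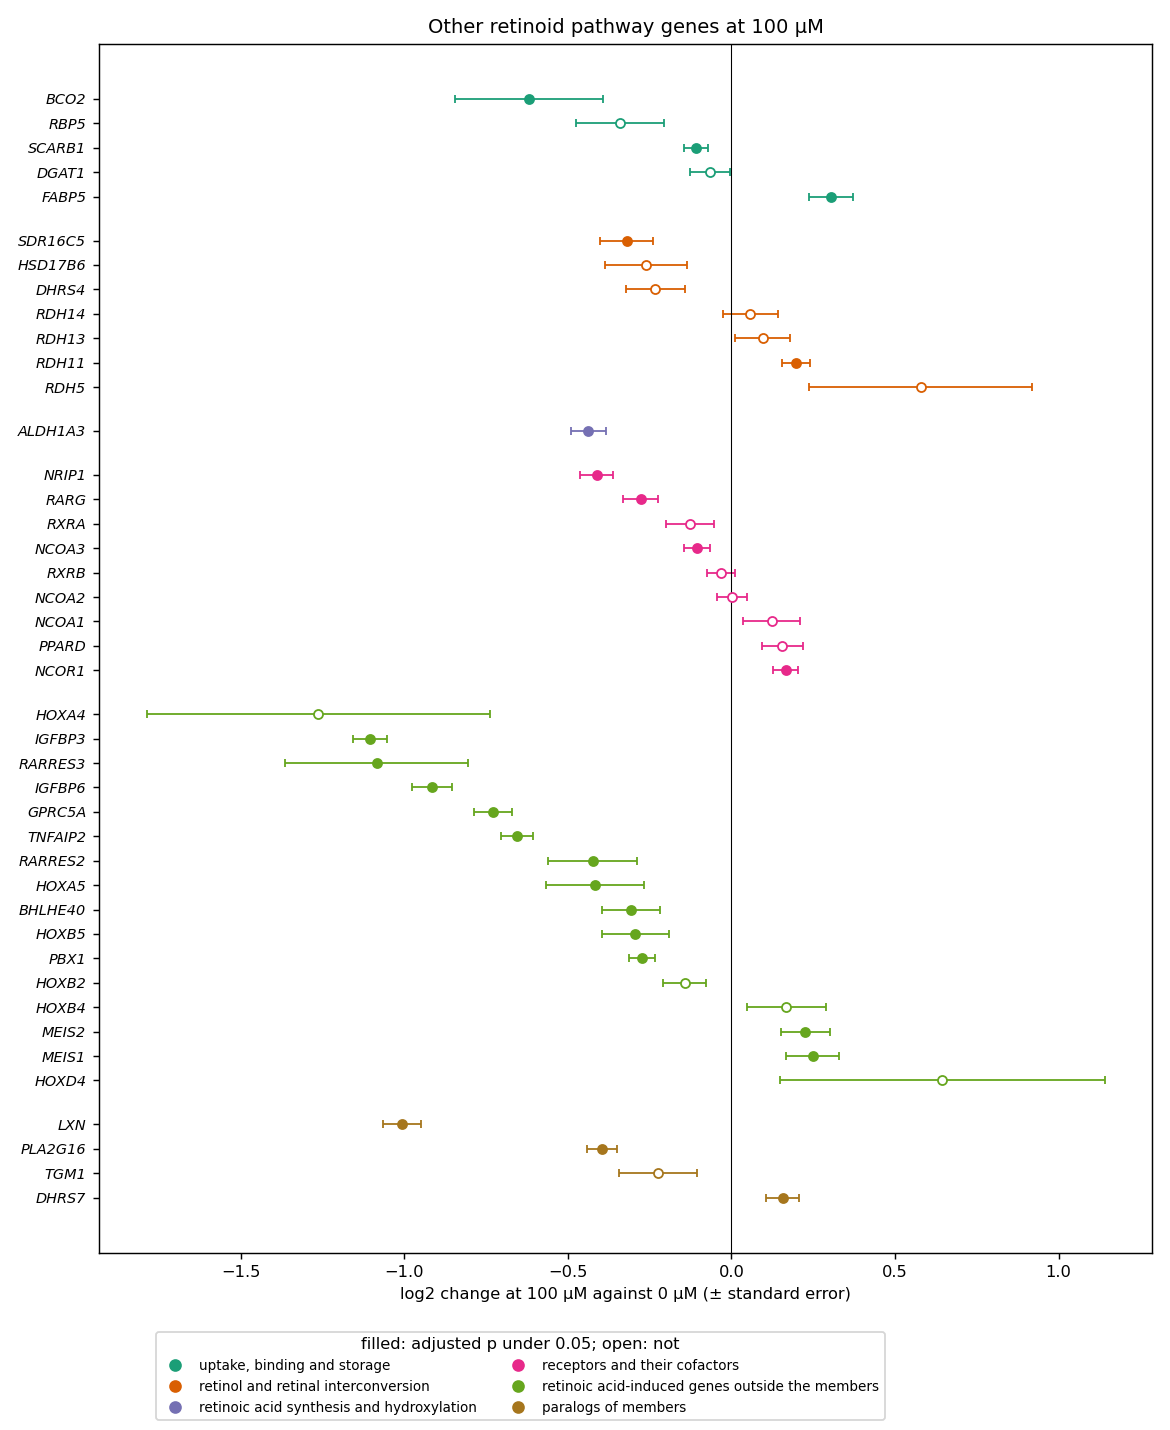
Log2 change at 100 µM against 0 µM (edgeR fit) of genes of the wider retinoid lists, grouped by role, with 1 of the 43 tested genes not shown, with bars of ± 1 standard error, filled points for an adjusted p under 0.05 and open points for the rest. IGFBP3 (-1.11), RARRES3 (-1.08), LXN (-1.01) and IGFBP6 (-0.92) are among the lowest filled points, and the filled points above 0 reach no more than 0.30 (FABP5).

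At 10 µM, 5 of the 43 wider genes were called, 2 up and 3 down (11.6%, beside 2.62% of all tested genes). The falls were IGFBP3, IGFBP6 and LXN. The rises were RDH11 at 0.16 and NCOR1 at 0.14 on the log2 scale (edgeR adjusted p = 0.0419 and 0.0438). RDH11 lost its call without any 1 of the 6 libraries compared (adjusted p = 0.0691, 0.126 and 0.152 without control replicates 1, 2 and 3, and 0.0753, 0.179 and 0.0865 without 10 µM replicates 1, 2 and 3). NCOR1 lost it without control replicate 1 or 3 or any 10 µM replicate (adjusted p = 0.188, 0.160, 0.0810, 0.149 and 0.128), and against 0.001 to 1 µM in place of 0 µM its log2 change at 10 µM was 0.00051 (edgeR adjusted p = 0.997). Against those doses RDH11 was at 0.08 (edgeR adjusted p = 0.272). LXN missed the threshold with control replicate 1 alone (adjusted p = 0.0629). Under upper-quartile scaling 0 of the 43 rose and 3 fell at this dose, and over all genes 129 rose and 215 fell in place of 291 and 146.

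For 0.001 to 1 µM as 1 contrast, 4 of the 43 rose and 0 fell (9.3%, beside 6.99% of all tested genes). Among them were SCARB1 (0.13 on the log2 scale), PPARD (0.17) and NCOR1 (0.14), with edgeR adjusted p = 0.00312, 0.0299 and 0.00357. PPARD is named at these doses after its values were seen. Without control replicate 1 or without control replicate 3, 2 of the 43 were called, and under upper-quartile scaling 3 rose and 1 fell, with 535 rises and 498 falls over all genes in place of 876 and 291.

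Genes outside the 10 whose dose pattern was most like that of CYP26B1, DHRS3 or TGM2 were found by the root mean square difference of the 7 group means of log2 CPM, each gene centred on its own mean. Closest to CYP26B1 were PADI1 at 0.145, BDKRB2 at 0.179, TNFSF15 at 0.194, SCNN1A at 0.212 and IGFBP1 at 0.216. TGM2 was closest to TNFSF15 at 0.0587, PADI1 at 0.0634, SCNN1A at 0.0849, BDKRB2 at 0.0851 and VSIR at 0.096, so 4 of these genes stand beside both. DHRS3 had other neighbours, FRMD3 at 0.0317, ALPG at 0.0398, ISYNA1 at 0.0539, KLHL3 at 0.0637 and GDPD5 at 0.0638. Among the 10 genes themselves, TGM2 (0.1501) and CYP26A1 (0.180) were the nearest to CYP26B1, at places 2 and 4 of all tested genes. STRA6 (0.120) and CYP26A1 (0.132) were the nearest to TGM2, at places 7 and 9. For DHRS3 the nearest were RARRES1 (0.110) and STRA6 (0.120), only at places 38 and 56, and CYP26B1 stood at place 1459. PADI1 averaged 0.519 CPM, a level at which few reads set each group mean.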

How the data were processed

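Poly(dT)-selected RNA of 21 samples was sequenced, per the labels' protocols. The authors deposited whole-number counts per gene, and a second table of FPKM, scaled by the authors to gene length and a library total. The submitters' processing notes name HISAT2, DESeq2 and GRCh38 but no versions. The counter and its strand setting were not stated in the labels. The coordinates of the 10 genes in the deposited table matched those of GENCODE release 29.

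Samples were grouped by the labelled dose. In edgeR 4.0.16 (R 4.3.3), genes were kept by filterByExpr on dose, scaled by TMM and tested by the quasi-likelihood F test (robust) in a single fit of the 21 libraries, which leaves 14 residual degrees of freedom, two-sided and Benjamini-Hochberg adjusted over 16699 genes at a threshold of 0.05. A standard error is the absolute log2 change over the square root of F. CPM use TMM-scaled totals. FPKM served only to order levels between genes. The procedure was tested on simulated data with known fold changes. The replicates' biological coefficient of variation was 4.49%, and totals of 26984563 to 43375429 counts limit precision. A count of 0 allows up to 3 counts, a floor that covers counting error only, since PCR copies are not independent molecules.

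The 10 genes and all lists were chosen with earlier results of these data known. Every one of the 10 is named. Of the wider lists, up to 4 genes per role that passed at 100 µM and up to 2 at 10 µM, by smallest p, and up to 2 that did not pass at 100 µM, by highest mean CPM, are named, and RARB, ALDH1A1, ALDH1A2 and ALDH1A3 in any case. The 5 most like genes outside the 10 are named for CYP26B1, DHRS3 and TGM2. Other genes were named after their values were seen, and 1 gene that the rule names is not reported here.

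Alternatives were RLE and upper-quartile scaling, no filter, 1 CPM in 3 libraries, a fit of the compared groups alone, a block for the replicate number, control replicate 1 alone, 0.001 to 1 µM as the control level, DESeq2 1.42.0, and leaving out each library in turn.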

Additional observations from a re-analysis of the deposited data

How the results depend on the processing

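With a library left out, the log2 changes of the 10 genes kept within 1 SD of their replicates in 120 of 120 comparisons. Nothing is read from that, since leaving out 1 replicate of so small a group shifts its mean by less than 1 SD. Under the other alternatives the log2 changes kept within 1 SD in 174 comparisons. The other 6 were RDH10 at 100 µM with control replicate 1 alone (-0.09) and, with 0.001 to 1 µM as the control level, CYP26B1 (-1.92), RDH10 (-0.12) and RARA (-0.32) at 100 µM and RDH10 (-0.04) and RARA (-0.32) at 10 µM. RDH10 at 10 µM, which was not called, is the one of them that changed sign. With libraries left out, 7 to 8 of the 10 were called at 100 µM, 5 to 6 at 10 µM and 0 at 0.001 to 1 µM. Over the other alternatives it was 7 to 9, 5 to 7 and 0.

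Counts over all genes depended on the controls. With a library left out they ran from 3516 to 4318 at 100 µM, 92 to 649 at 10 µM and 373 to 1230 at 0.001 to 1 µM, against 4558, 437 and 1167 with all libraries. Control replicate 1 alone gave 2222, 91 and 186, and a fit of only the groups compared gave 213 at 10 µM. Of the wider genes, 19 to 23, 3 to 4 and 2 to 4 were called with a library left out, against 25, 5 and 4. Control replicate 1 alone gave 14, 3 and 1. At 10 µM upper-quartile scaling and a fit of only the groups compared gave 3 each, and 0.001 to 1 µM as the control level gave 9.

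Among wider genes, RBP5 turned to 0.0082 and RDH14 to -0.0887 with control replicate 1 alone, and DGAT1 to 0.0131 against 0.001 to 1 µM. RDH14 ran from -0.0214 (without control replicate 3) to 0.136 (without control replicate 1); none of these 3 was called with all libraries. Calls of single wider genes were lost in 24 comparisons and gained in 14 over the alternatives other than a library left out. The causes were not tested.

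The labels' replicate numbers did not pair the samples: deviations of same-numbered libraries at 100 and 0 µM correlated at 0.047, 0.0212 and 0.0217, and 9 of 21 libraries correlated best with their own number. With the replicate block, 4446, 376 and 1108 genes were called at 100 µM, 10 µM and 0.001 to 1 µM, with 8, 5 and 0 of the 10 genes and 25, 4 and 4 of the wider genes. NCOA3 at 100 µM (adjusted p = 0.0525) and RDH11 at 10 µM (0.0548) were then not called and DHRS4 at 100 µM was (0.0442), by the same edgeR test. With 8 to 60 counts per library, CYP26A1 is the gene whose values depth limits most.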
